A study of Mus musculus with 19 samples.

Results

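Regorafenib alone was set against anti-PD1 alone in carcinogen-induced oral tumours of mice, over all genes of a table of read counts. The comparison holds 7 of the series' 19 RNA-seq libraries, 4 from mice given regorafenib and 3 from mice given an antibody against PD1, chosen by the treatment in the sample titles. All were C57BL/6J mice, 6 weeks old when they were started on 100 µg/ml 4NQO in drinking water for 10 weeks, and then kept on fresh water to the end of the experiment. Regorafenib was given at 5 mg/kg/day, and the dose and clone of the anti-PD1 antibody, the length of treatment and the sex of the mice are not stated in the sources used here. Another 4 libraries from vehicle-treated mice are quoted as the background level, and they carry the same 4NQO exposure. The 5 libraries of both drugs together and the 3 of an anti-CD40 agonist entered only the shared estimate of the spread between libraries. The labels do not say that each library came from its own mouse, so every p-value here reflects library-to-library spread, which may be technical.

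4NQO is a DNA-damaging chemical that mimics tobacco carcinogens and gives squamous tumours of the tongue and mouth. Regorafenib is an oral multikinase inhibitor that blocks receptor kinases of vessels and stroma, among them the VEGF and PDGF receptors, and the macrophage growth factor receptor CSF1R. PD1 is a receptor that restrains T cells. Antibodies against it release T cells, which secrete interferon-gamma, and cells that meet interferon-gamma transcribe GTPases of the GBP and IRG families, the chemokines CXCL9 and CXCL10, and the machinery of MHC class I.

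Library totals ran from 17096257 to 22653163 counts in regorafenib libraries and from 18436257 to 22822677 counts in anti-PD1 libraries. The squamous keratin gene Krt5 was abundant in all, at 2556 to 3579 counts-per-million (CPM) in regorafenib, 2039.8 to 2548 CPM in anti-PD1 and 1981 to 2364 CPM in vehicle libraries. The samples were not pure tumour. The 19 genes of a skeletal muscle sarcomere list summed to 27417 to 35040 CPM in regorafenib libraries, 40346 to 47815 CPM in anti-PD1 libraries and 40508 to 47284 CPM in vehicle libraries, so the regorafenib and anti-PD1 ranges did not overlap. Salivary gland genes were high in regorafenib 2 and 3, in anti-PD1 1 and 2 and in vehicle 2, and they ranged from 47.7 to 7315 CPM in regorafenib libraries and from 49.2 to 16655 CPM in anti-PD1 libraries. In such bulk tissue, fewer cells of a type and less RNA per cell cannot be told apart.

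In regorafenib tumours several interferon-gamma inducible, macrophage, pericyte, PDGF receptor and muscle genes were lower than in anti-PD1 tumours. Some basal and wound keratins, replication helicase subunits and genes of a stomach list were higher. Of 16909 genes tested, 1410 (8.34%) passed an adjusted p of 0.05 in edgeR's quasi-likelihood test. Of these, 703 (4.16% of those tested) were higher and 707 (4.18%) lower with regorafenib. These shares are the background for every count below of list members called between regorafenib and anti-PD1. They do not apply to counts called against vehicle. Most changes were small. The median size of a called change was 0.435 on the log2 scale, and 30 genes were at least 2-fold higher and 63 at least 2-fold lower. The median log2 change of all tested genes was 0.00. The count rested on few libraries: it was 37 without anti-PD1 1, 20 without anti-PD1 2 and 1231 without anti-PD1 3, and it ranged from 308 to 971 when 1 regorafenib library was left out. With the muscle score of each library as a covariate it was 3, and with a salivary gland score 1621. Since the muscle levels of the 2 groups did not overlap, drug and muscle content cannot be told apart in this comparison.

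**Figure D1:**
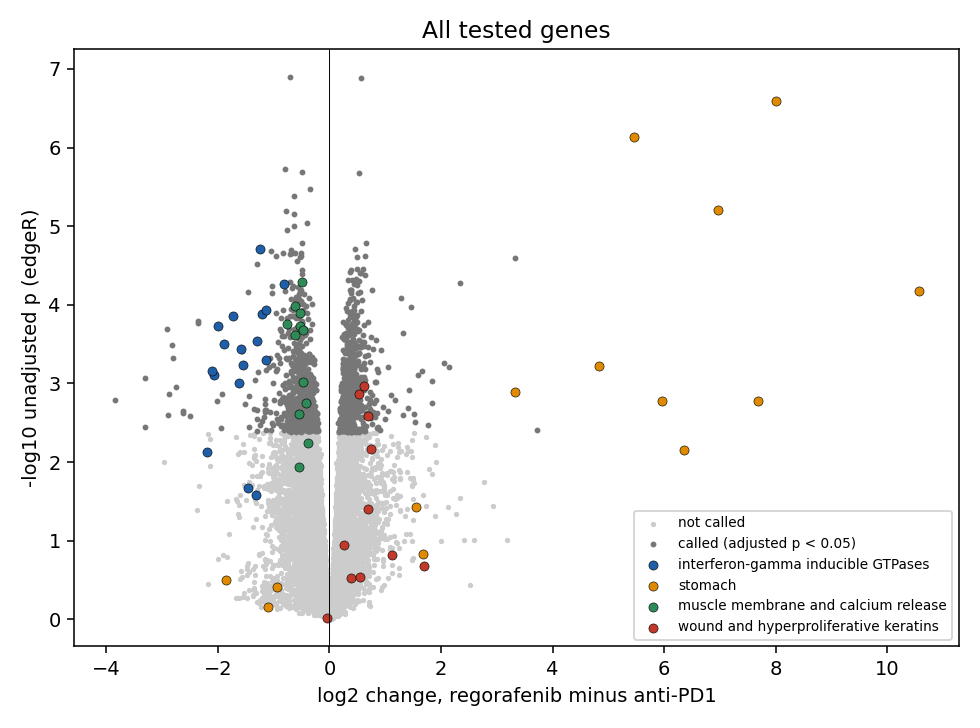
Each point is 1 of the 16909 tested genes, with its log2 change (regorafenib minus anti-PD1) on the x axis and the -log10 unadjusted p of edgeR on the y axis. Points in dark grey or with a black edge above the grey band passed the adjusted p of 0.05. Interferon-gamma inducible GTPases (blue) lie on the left, 8 called genes of the stomach list (orange) on the far right, and muscle membrane genes (green) in a narrow band left of 0.

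**Figure D2:**
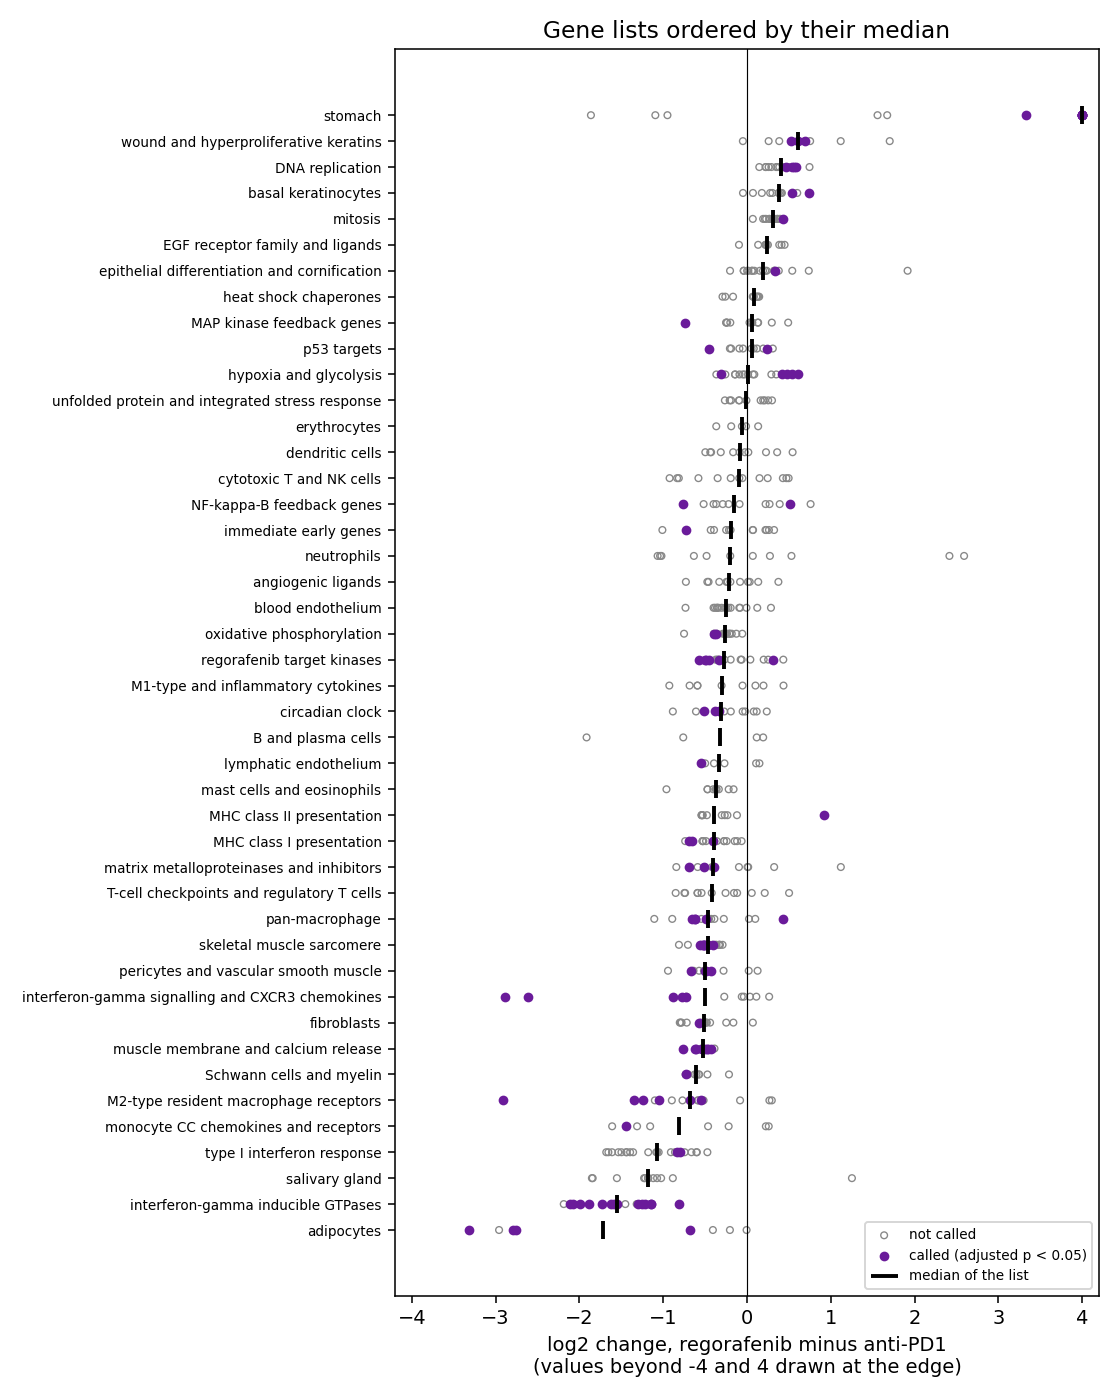
Each row is a gene list, ordered by its median, with 1 point per tested member at its log2 change (regorafenib minus anti-PD1) and a bar at the median. Filled points were called at an adjusted p of 0.05. Adipocyte genes (median -1.72) and interferon-gamma inducible GTPases (-1.55) lie lowest, and wound keratins (0.61) and stomach genes (5.14, drawn at the edge) highest.

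Only 13 of the 1410 genes kept their call in each of the 7 fits that left out 1 library. Among those lower with regorafenib were Pknox2, a homeobox factor, Slc8a3, a sodium-calcium exchanger of muscle and neurons, Usp2, a ubiquitin protease under clock control, Txndc16, a thioredoxin-domain protein, Mlip, a lamin-interacting protein of muscle, Znfx1, an antiviral RNA helicase, Gbp4, an interferon-inducible GTPase, and Cybb, the catalytic subunit of the phagocyte NADPH oxidase. Those higher were Myof, a membrane-repair protein of the ferlin family, Pgam1, a glycolytic mutase, Clps, the cofactor of pancreatic lipase, and Atp4a, the catalytic subunit of the stomach proton pump. Myof had 116, 118, 109 and 127 CPM in regorafenib libraries, against 79.4, 75.9 and 82.7 CPM in anti-PD1 libraries, and the log2 change was 0.57 ± 0.07 (± SE, edgeR adjusted p = 0.0011). Pknox2 had 19.5, 16.5, 16.4 and 16.6 CPM in regorafenib libraries, against 26.8, 27.5 and 29.8 CPM in anti-PD1 libraries, with a log2 change of -0.70 ± 0.09 (edgeR adjusted p = 0.0011). For both genes the groups did not overlap. Such separation was common: it held for 26.8% of all tested genes and for 1353 of the 1410 called. Cybb had 4.59, 6.38, 4.67 and 5.67 CPM in regorafenib libraries and 9.58, 9.47 and 12.1 CPM in anti-PD1 libraries, each regorafenib value below each anti-PD1 value (log2 change -0.96 ± 0.17, edgeR adjusted p = 0.0135). The vehicle mean lay between, at 7.42 ± 1.7 CPM (SD, n = 4).

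Many interferon-inducible genes carry 1 or both of 2 kinds of short element near their start: the ISRE, the interferon-stimulated response element, which IRF factors bind, and the GAS, the interferon-gamma activated site. The promoters of 4 genes that recur below are shown, each from 250 bases before to 50 bases after the start in RefSeq (GRCm38.p6), read on the gene's own strand. For Gbp5 this start lies inside the gene span given below, which comes from another annotation, GENCODE. Capitals mark letters that match the ISRE (GAAA, any 2 bases and GAAA, or on the other strand TTTC, any 2 bases and TTTC) or the GAS (TTC, any 3 bases and GAA, which reads the same on both strands).
Gbp5 (chr3:142496684-142496983, plus strand): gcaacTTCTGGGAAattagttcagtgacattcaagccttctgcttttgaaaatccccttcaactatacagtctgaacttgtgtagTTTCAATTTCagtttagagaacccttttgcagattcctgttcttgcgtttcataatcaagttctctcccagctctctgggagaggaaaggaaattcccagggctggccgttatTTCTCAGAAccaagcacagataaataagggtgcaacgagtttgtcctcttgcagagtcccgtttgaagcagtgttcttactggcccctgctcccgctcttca
Igtp (chr11:58199306-58199605, plus strand): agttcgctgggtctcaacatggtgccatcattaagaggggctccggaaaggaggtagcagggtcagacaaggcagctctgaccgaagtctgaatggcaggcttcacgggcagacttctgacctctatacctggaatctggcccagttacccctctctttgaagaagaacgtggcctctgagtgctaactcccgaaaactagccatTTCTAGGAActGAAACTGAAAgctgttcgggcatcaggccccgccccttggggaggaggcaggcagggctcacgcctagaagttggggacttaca
Cxcl10 (chr5:92348840-92349139, minus strand): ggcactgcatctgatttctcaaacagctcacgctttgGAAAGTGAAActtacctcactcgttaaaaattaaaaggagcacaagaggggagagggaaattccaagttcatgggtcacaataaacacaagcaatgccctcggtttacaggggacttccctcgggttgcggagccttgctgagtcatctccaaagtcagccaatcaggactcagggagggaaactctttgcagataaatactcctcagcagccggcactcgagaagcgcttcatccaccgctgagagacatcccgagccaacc
Irf1 (chr11:53769764-53770063, plus strand): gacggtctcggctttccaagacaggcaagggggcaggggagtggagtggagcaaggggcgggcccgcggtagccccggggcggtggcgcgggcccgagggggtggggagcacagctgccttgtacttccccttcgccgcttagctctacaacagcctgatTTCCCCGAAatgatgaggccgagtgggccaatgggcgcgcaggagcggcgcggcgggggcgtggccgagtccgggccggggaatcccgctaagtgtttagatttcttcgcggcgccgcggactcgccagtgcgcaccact
Gbp5 held 1 ISRE match and 2 GAS matches, Igtp 1 of each, Cxcl10 1 ISRE match and Irf1 1 GAS match, with 0 bases shared by matches of both kinds. A second Irf1 window in the table held no match to either. Of the 11 GTPase genes with a window, 10 (90.9%) held an ISRE match and 6 (54.5%) a GAS match, against 3.79% and 8.35% of the 12005 tested genes with a window. For the type I interferon list the shares were 64.7% and 17.6% of 17 genes, and for the MHC class I list 35.7% and 7.14% of 14. Of the 10 genes with a window in the interferon-gamma signalling and CXCR3 list, which holds Cxcl10 and Irf1, 2 held an ISRE match and 2 a GAS match. The windows of Cxcl9, Tapbp, Tap1 and Psmb9 held neither. A match to these letters is a description of the window and does not show binding.

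The interferon-gamma inducible GTPases coat and disrupt the vacuoles of intracellular pathogens, and with regorafenib they were lower nearly throughout. All 17 were tested and all had a negative log2 change, with 14 called lower (82.4%, beside 4.18% of all tested genes called lower) and a median of -1.55. Their summed level was 78.4 to 130.1 CPM in regorafenib libraries, 235 to 439 CPM in anti-PD1 libraries and 95.3 to 164 CPM in vehicle libraries. Against vehicle, the median log2 difference of the list was -0.27 for regorafenib and 1.23 for anti-PD1, both from groups that share the vehicle libraries. No member was called against vehicle for either drug, so a rise over vehicle with anti-PD1 is not established. The lack of calls is not particular to this list, as no member of any of the 44 lists was called for anti-PD1 against vehicle.

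Gbp5 (chr3:142493978-142522344, plus strand, GRCm38), a guanylate-binding protein that promotes inflammasome assembly, had 2.87, 3.01, 2.87 and 3.99 CPM in regorafenib libraries, against 7.1, 5.04 and 9.02 CPM in anti-PD1 libraries. The highest regorafenib value, in regorafenib 4, stayed below the lowest anti-PD1 value, in anti-PD1 2. The log2 change was -1.14 ± 0.24 (edgeR adjusted p = 0.0186), and the vehicle libraries held 2.47 to 3.99 CPM. Igtp (chr11:58199556-58207591, plus strand, GRCm38), an IRG protein that guards host membranes, had 5.96, 9.75, 6.7 and 10 CPM with regorafenib, against 23.1, 21.4 and 45.8 CPM with anti-PD1 (log2 change -1.89 ± 0.41, edgeR adjusted p = 0.023). Its regorafenib values lay within the vehicle range of 5.76 to 14.2 CPM, and anti-PD1 3 was the highest library. Gbp4 (chr5:105115767-105139586, minus strand, GRCm38) had 7.28, 8.5, 7.26 and 8.24 CPM with regorafenib, against 17.7, 14.4 and 23.7 CPM with anti-PD1 (log2 change -1.25 ± 0.22, edgeR adjusted p = 0.0135). Regorafenib values differed among themselves by far less than from any anti-PD1 value.

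Among the others, Iigp1, an IRG protein that attacks the vacuole of Toxoplasma, averaged 8.71 ± 2.51 CPM with regorafenib and 36.9 ± 19 CPM with anti-PD1 (SD, n = 4 and 3). Gbp2, another guanylate-binding protein, averaged 12.7 ± 3.78 CPM with regorafenib and 42.3 ± 18.8 CPM with anti-PD1. Tgtp1 and Tgtp2, a near-identical pair of IRG genes, had log2 changes of -2.11 and -2.0, and counts may have been split between them. Igtp and Irgm2 overlap on 1 strand, as do Gbp4, Gbp8 and Gbp9, so these members are not independent. The calls depended on single libraries: 14 members were called with all libraries, 2 without anti-PD1 1, 3 without anti-PD1 2, 8 without anti-PD1 3, and 6, 13, 7 and 12 without regorafenib 1, 2, 3 and 4. None was called with the muscle covariate and 14 with the gland covariate.

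**Figure D3:**
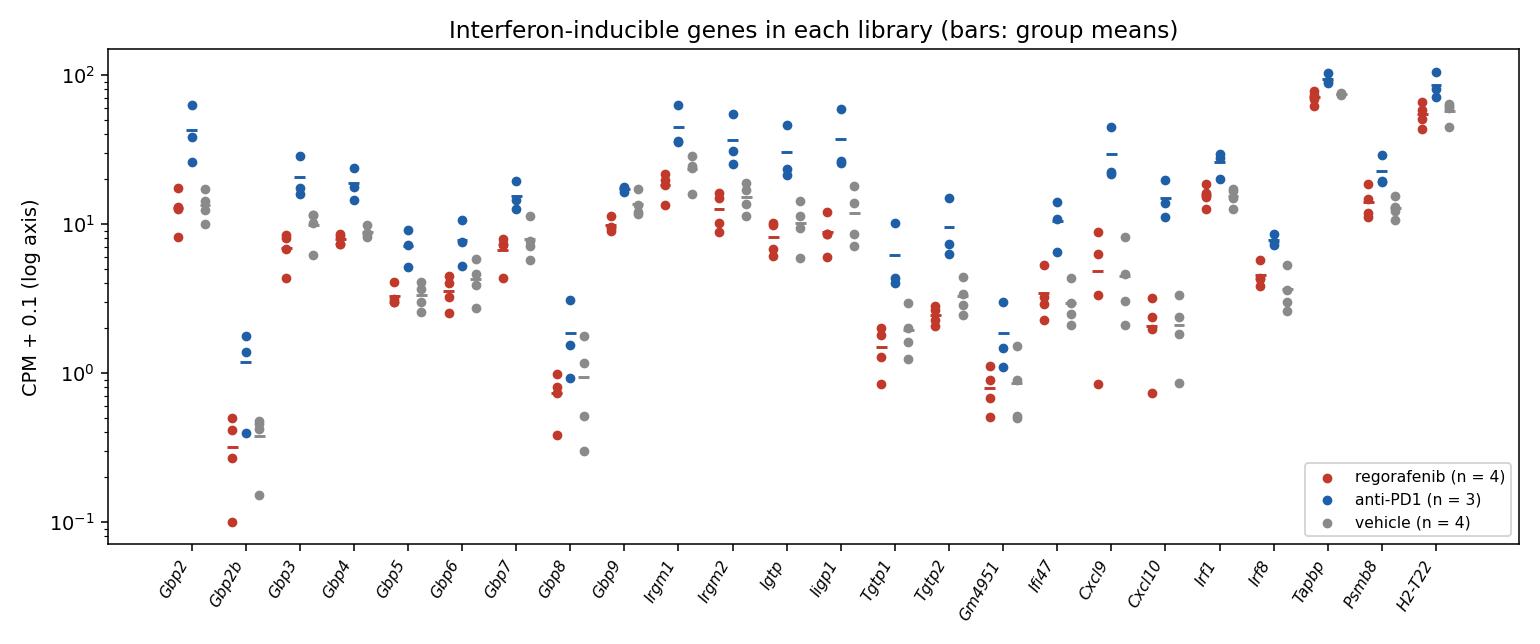
CPM + 0.1 on a log axis for the 17 interferon-gamma inducible GTPases and 7 further interferon-responsive genes, 1 point per library, with bars at the group means. For 14 of the GTPases the 4 regorafenib points (red) were called lower than the 3 anti-PD1 points (blue), and they lie near the 4 vehicle points (grey).

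The signalling genes and CXCR3 chemokines were lower in part. Of 12 tested members, 5 were called lower, among them Irf1, Irf8, Cxcl9 and Cxcl10, and none higher, with a median of -0.50. Cxcl10 (chr5:92346638-92348889, minus strand, GRCm38), which draws CXCR3-bearing T cells, had 0.631, 2.26, 1.86 and 3.1 CPM in regorafenib libraries, against 13.7, 11 and 19.6 CPM in anti-PD1 libraries, a log2 change of -2.88 ± 0.73 (edgeR adjusted p = 0.0333). The lowest anti-PD1 value was above each regorafenib value and above the vehicle range of 0.754 to 3.25 CPM. Anti-PD1 against vehicle was not called for this gene (edgeR adjusted p = 0.225). Cxcl9, a second CXCR3 ligand that depends on interferon-gamma, had 0.745, 6.2, 3.21 and 8.73 CPM with regorafenib, against 21.4, 22.4 and 44.7 CPM with anti-PD1 (log2 change -2.62 ± 0.71, edgeR adjusted p = 0.0393). Irf1 (chr11:53770014-53778374, plus strand, GRCm38), a transcription factor that interferon-gamma induces, averaged 15.5 ± 2.51 CPM with regorafenib and 25.8 ± 5.17 CPM with anti-PD1, a log2 change of -0.73 ± 0.17. Irf8, a factor of macrophages and dendritic cells, changed by -0.78 ± 0.21. These calls fell to 0 without any 1 of the anti-PD1 libraries and without regorafenib 1, and to 2, 1 and 2 without regorafenib 2, 3 and 4. Ifng itself was too low to be tested.

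All 16 MHC class I genes had negative log2 changes, with a median of -0.40, and 3 were called lower. Tapbp, the tapasin that loads peptides onto class I molecules, had 62.3, 72.8, 69.3 and 77.9 CPM with regorafenib, against 91, 87.8 and 102 CPM with anti-PD1 (log2 change -0.41 ± 0.10). The immunoproteasome subunit Psmb8 changed by -0.69 ± 0.20 and the class Ib gene H2-T22 by -0.66 ± 0.17. B2m, the class I light chain, missed the threshold at -0.52 ± 0.16 (edgeR adjusted p = 0.0519), as did the class I heavy chain H2-K1 at -0.27 ± 0.14 (edgeR adjusted p = 0.19). None of the 3 was called without any 1 anti-PD1 library or without regorafenib 1 or 3. Of 10 MHC class II presentation genes, Cd80, a costimulatory ligand of CD28, was called higher with regorafenib, at 2.69, 2.48, 2.65 and 3.81 CPM against 1.22, 1.61 and 1.8 CPM with anti-PD1 (log2 change 0.92 ± 0.21). The other 9 had negative values, such as the class II alpha chain H2-Aa at -0.54 ± 0.22 (edgeR adjusted p = 0.123). The Cd80 call was lost without anti-PD1 1, anti-PD1 2 or regorafenib 4.

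The 22 genes of the type I interferon response, antiviral effectors shared in part with interferon-gamma, all had negative log2 changes and a median of -1.08. Yet 2 (9.09%, beside 4.18% of all tested genes called lower) were called. These were Bst2, the tetherin that holds virions at the membrane, with a log2 change of -0.80 ± 0.22, and Ifit3b, a copy of Ifit3, with -0.84 ± 0.25. Isg15, a ubiquitin-like modifier, had 2.92, 10.5, 7.26 and 5.54 CPM with regorafenib and 12.2, 14 and 29.7 CPM with anti-PD1, and it was not called (edgeR adjusted p = 0.134). Against vehicle the list's median difference was -0.34 for regorafenib and 0.66 for anti-PD1, with no member called for either drug. Its 2 calls fell to 0 without any 1 anti-PD1 library and without regorafenib 1 or 4. Batf2, an interferon-gamma inducible transcription factor, was among the 12 largest falls, at 0.115, 0.399, 0.113 and 0.532 CPM with regorafenib and 0.826, 0.775 and 1.89 CPM with anti-PD1 (log2 change -1.93 ± 0.51, edgeR adjusted p = 0.0331), and its call was lost in 5 of the 7 fits without 1 library.

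Of 15 tested receptors and other markers of resident, M2-type macrophages, 6 were called lower with regorafenib (Cd163, Siglec1, Lyve1, Folr2, Timd4 and Chil3) and none higher, with a median of -0.68. The list's summed level overlapped between the groups, at 397 to 436 CPM with regorafenib and 401 to 414 CPM with anti-PD1. For Cd163, Siglec1, Lyve1 and Folr2 the anti-PD1 mean lay near the vehicle mean. Cd163, the haemoglobin scavenger receptor of tissue macrophages, had 9.4, 8.95, 7.1 and 11.3 CPM with regorafenib, against 16.6, 20.1 and 20.6 CPM with anti-PD1, a log2 change of -1.05 ± 0.19 (edgeR adjusted p = 0.0135). The groups did not overlap, and the vehicle libraries held 14.1 to 22.7 CPM. Siglec1, the sialic acid receptor of resident macrophages, had 0.631, 0.443, 0.451 and 0.709 CPM with regorafenib and 1.75, 0.720 and 1.8 CPM with anti-PD1 (log2 change -1.35 ± 0.38, edgeR adjusted p = 0.0384). The lowest anti-PD1 value, 0.72 CPM in anti-PD1 2, lay just above the highest regorafenib value. Lyve1, a hyaluronan receptor that lymphatic vessels also carry, changed by -0.55 ± 0.16, and the folate receptor Folr2 by -0.68 ± 0.21. Timd4, a receptor for dying cells, changed by -1.24 ± 0.37 and Chil3, a chitinase-like secreted protein, by -2.91 ± 0.63. Without 1 library at a time, 0 to 2 members were called, and 0 without anti-PD1 2.

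Of 15 pan-macrophage genes, Csf1r and the complement genes C1qa, C1qb and C1qc were called lower and 1 gene higher, with a median of -0.46. Csf1r, the receptor for the macrophage growth factors and itself a regorafenib target, had 22.9, 21.1, 23.6 and 23.1 CPM with regorafenib, against 30.4, 28.8 and 35.8 CPM with anti-PD1 (log2 change -0.48 ± 0.11, edgeR adjusted p = 0.0236). The 3 C1q genes, which encode the first complement component and which tissue macrophages make, changed by -0.62, -0.66 and -0.62. Adgre1, the F4/80 antigen, had -0.43 ± 0.19 and was not called (edgeR adjusted p = 0.155). The 4 lower calls numbered 0 without any 1 anti-PD1 library and 1 to 3 without 1 regorafenib library. Ccl2, the main monocyte-attracting chemokine, was the 1 called gene of 8 in its list, at 2.69, 0.975, 2.2 and 1.55 CPM with regorafenib and 6.17, 3.71 and 5.07 CPM with anti-PD1 (log2 change -1.44 ± 0.38). Its vehicle libraries held 0.754 to 1.51 CPM, and its call stood in the fit without regorafenib 1 but in no other fit that left out a library.

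None of 13 cytotoxic T and NK cell genes passed the test (median -0.09), and 13 checkpoint and regulatory T-cell genes gave none either (median -0.42). Of all tested genes 8.34% passed, so lists of this size would hold few calls at that share. The T-cell receptor chain Cd3e had 1.49, 1.46, 1.01 and 1.37 CPM with regorafenib and 0.729, 1.22 and 1.66 CPM with anti-PD1, overlapping ranges with a log2 difference of 0.15 ± 0.28 (edgeR adjusted p = 0.761). Cd8a, the coreceptor of cytotoxic T cells, differed by 0.50 ± 0.41 (edgeR adjusted p = 0.458), and Pdcd1, which encodes PD1, by 0.50 ± 0.37 (edgeR adjusted p = 0.393). Cd274, which encodes the ligand PD-L1 and responds to interferon-gamma, had 5.39, 5.98, 7.15 and 7.67 CPM with regorafenib and 7.19, 10.5 and 17.7 CPM with anti-PD1 (log2 difference -0.85 ± 0.28, edgeR adjusted p = 0.067). Foxp3, the master factor of regulatory T cells, differed by -0.74 ± 0.29 (edgeR adjusted p = 0.103). Against vehicle, the cytotoxic list had a similar median difference for the 2 drugs, 0.87 for regorafenib and 0.96 for anti-PD1. For regorafenib 5 members were called higher, and for anti-PD1 0 were called. As no member of any list was called for anti-PD1 against vehicle, these counts do not separate the drugs. The share of all tested genes called against vehicle is not given here.

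No neutrophil gene was called of 11 tested, although the calprotectin genes of neutrophils had a wide gap. S100a8, which keratinocytes also make, had 678, 978, 1302 and 1038 CPM with regorafenib, against 179, 168 and 215 CPM with anti-PD1, without overlap, but its vehicle libraries ran from 3.11 to 626 CPM and the change missed the threshold (log2 2.42 ± 1.36, edgeR adjusted p = 0.262). S100a9, its partner, averaged 1292 ± 407 CPM with regorafenib and 215 ± 29.4 CPM with anti-PD1 (edgeR adjusted p = 0.266). Il17f, a T-cell cytokine that acts on epithelium, was called higher at 3.27, 1.77, 4.11 and 2.62 CPM with regorafenib, against 0.194, 0.332 and 0.135 CPM with anti-PD1 (log2 change 3.73 ± 1.10, edgeR adjusted p = 0.0488). Its vehicle libraries held 0 to 1.71 CPM, up to just below the lowest regorafenib value, and the call was lost in each of the 7 fits without 1 library. Il17a, looked up after the Il17f value was seen, had 0.975, 0.532, 1.35 and 0.931 CPM with regorafenib and 0.0972, 0.277 and 0.0449 CPM with anti-PD1 (log2 2.76 ± 1.05, edgeR adjusted p = 0.0998). Orm1, an acute-phase glycoprotein, and Edn2, an endothelin peptide, were also among the 12 largest rises, with log2 changes of 2.15 ± 0.52 and 2.06 ± 0.50, and each lost its call in 5 of those 7 fits.

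Of 17 tested kinases that regorafenib is known to bind, 5 were called lower at the RNA level (Pdgfra, Pdgfrb, Fgfr1, Csf1r and Ddr2) and 1 higher (Fgfr2), with a median of -0.27. Pdgfra, the PDGF receptor of fibroblasts, had 27.6, 23.9, 25.5 and 24.4 CPM with regorafenib, against 45.1, 35.6 and 32.7 CPM with anti-PD1 (log2 change -0.58 ± 0.15, edgeR adjusted p = 0.0305). Pdgfrb, the PDGF receptor of pericytes, had 29.5, 23.3, 22.1 and 25.8 CPM with regorafenib, against 38.5, 35.5 and 32.9 CPM with anti-PD1 (log2 change -0.50 ± 0.15, edgeR adjusted p = 0.0445). Neither gene's groups overlapped. Ddr2, a collagen-binding receptor kinase of stroma, changed by -0.45 ± 0.13, and Fgfr1, the stromal FGF receptor, by -0.34 ± 0.09. Fgfr2, whose epithelial form receives keratinocyte growth factor, had 115, 121, 125 and 127 CPM with regorafenib, against 95.5, 96.9 and 103 CPM with anti-PD1 (log2 change 0.31 ± 0.09, edgeR adjusted p = 0.0485). Its annotated span overlaps many other tested genes on both strands, among them Bub3 and Ctbp2, so its counts are uncertain. The VEGF receptor genes were not called. Kdr, the main signalling receptor for VEGF-A, differed by -0.20 ± 0.17 (edgeR adjusted p = 0.488), and Flt1, its decoy-like relative, by -0.35 ± 0.15 (edgeR adjusted p = 0.126). In place of 5 lower calls there were 0 without anti-PD1 1 or 2, 2 without anti-PD1 3 and 1 without each regorafenib library. The Fgfr2 call stood in none of these 7 fits.

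Endothelial genes were not called (16 tested, median -0.25), nor were 12 angiogenic ligand genes (median -0.21), Vegfa, the main VEGF ligand, among them at -0.25 ± 0.13 (edgeR adjusted p = 0.212). Pericyte and vascular smooth muscle genes had 4 called lower of 12 (Pdgfrb, Rgs5, Abcc9 and Des), with a median of -0.50. Abcc9, a subunit of a potassium channel of pericytes that striated muscle also expresses, had 71, 67, 63.7 and 54.3 CPM with regorafenib, against 101, 108 and 97 CPM with anti-PD1 (log2 change -0.67 ± 0.13, edgeR adjusted p = 0.0163). Rgs5, a regulator of G-protein signalling that marks pericytes, had 154, 134, 131 and 126 CPM with regorafenib, against 177, 191 and 183 CPM with anti-PD1 (log2 change -0.43 ± 0.13). Both genes were lower in each regorafenib library than in each anti-PD1 library. Des, the intermediate filament of smooth and skeletal muscle, changed by -0.49 ± 0.15. The 4 calls numbered 0 without anti-PD1 1 or 2, 2 without anti-PD1 3 and 1 or 2 without 1 regorafenib library.

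Of 15 fibroblast genes 1 (6.67%, beside 4.18% of all tested genes) was called lower, which was Pdgfra, and their median was -0.51. Col1a1, a chain of type I collagen, had 41.3, 32, 35.9 and 41 CPM with regorafenib and 91.3, 47.3 and 46.9 CPM with anti-PD1, where anti-PD1 1 stood above the other anti-PD1 libraries (log2 -0.72 ± 0.23, edgeR adjusted p = 0.0629). Among 12 matrix metalloproteinases and inhibitors, Mmp19, a stromal protease, changed by -0.70 ± 0.14 (edgeR adjusted p = 0.0186). Timp2 and Timp3, inhibitors of these proteases, changed by -0.40 ± 0.10 and -0.51 ± 0.13. The 3 calls numbered 0 without anti-PD1 1 or 2 and 1 without regorafenib 2, 3 or 4. The Pdgfra call was lost without each library except anti-PD1 3, without which 3 fibroblast genes were called.

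Some epithelial genes ran the other way. Of 13 basal keratinocyte genes, Krt14 and Itga6 were called higher with regorafenib (median 0.38, beside 4.16% of all tested genes called higher), and of 11 wound and hyperproliferative keratin genes, Krt6a, Krt6b and Sprr1b were (median 0.61). Krt14, the keratin of the dividing basal layer, had 4138, 3377, 4109.7 and 4645 CPM with regorafenib, against 2447, 2289 and 2582 CPM with anti-PD1 (log2 change 0.74 ± 0.21, edgeR adjusted p = 0.0419). The groups did not overlap, and the vehicle libraries held 1503 to 2640.5 CPM. Itga6, the hemidesmosome integrin that anchors basal cells, had 205, 185, 214 and 285 CPM with regorafenib, against 163, 139.7 and 159 CPM with anti-PD1 (log2 change 0.53 ± 0.12, edgeR adjusted p = 0.0217). Krt6b, a keratin of wounded and hyperproliferating epithelium, had 7677, 7676, 8866 and 7441 CPM with regorafenib, against 4887, 4727 and 5136 CPM with anti-PD1 (log2 change 0.69 ± 0.20), and its near-identical copy Krt6a changed by 0.52 ± 0.14. Reads may have been shared between the 2. Sprr1b, a cornified envelope precursor, changed by 0.61 ± 0.16. Krt5, the partner of Krt14, missed the threshold at 0.38 ± 0.13 (edgeR adjusted p = 0.0674), as did the squamous lineage factor Trp63 at 0.40 ± 0.13 (edgeR adjusted p = 0.0525) and Krt16, another wound keratin, at 0.75 ± 0.24 (edgeR adjusted p = 0.0621). Of 19 differentiation and cornification genes 1 (5.26%, near the 4.16% of all tested genes) was called higher, the transglutaminase Tgm3 at 0.34 ± 0.10. Without anti-PD1 1 or 2 no basal or wound keratin gene was called, and the 3 wound keratin calls also fell to 0 without regorafenib 1, 3 or 4. No member of either list was called with the muscle covariate.

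**Figure D4:**
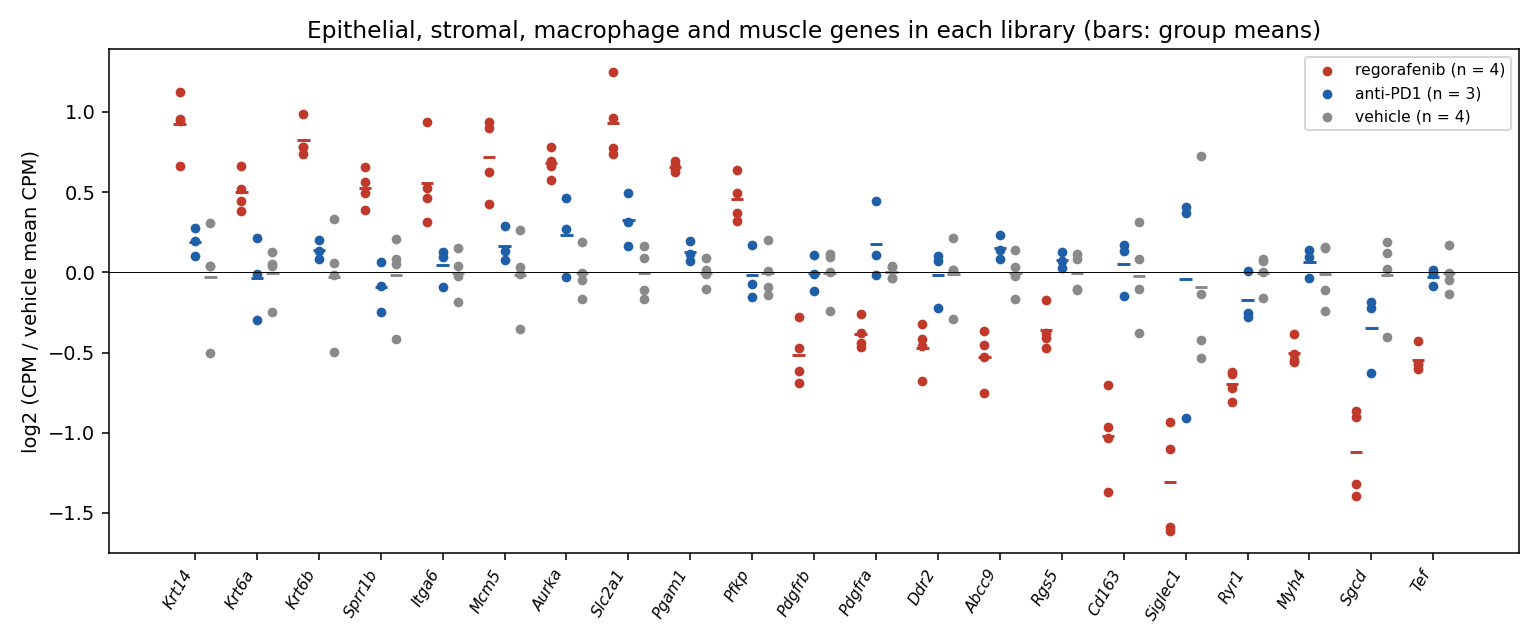
The log2 ratio of each library's CPM to the vehicle mean for 21 genes of the epithelium, replication, glycolysis, stroma, macrophages, muscle and the clock, 1 point per library, with bars at the group means. Regorafenib points (red) lie above the anti-PD1 points (blue) for Krt14, Krt6b and Pgam1 and below them for Abcc9, Cd163, Ryr1 and Tef, while most anti-PD1 points lie near the vehicle points (grey).

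Replication genes rose in part. Of 16 DNA replication genes, 4 subunits of the MCM helicase that unwinds origins (Mcm2, Mcm3, Mcm5 and Mcm6) were called higher, and the list's median was 0.41. Mcm5 had 29.3, 21.1, 24.3 and 30.1 CPM with regorafenib, against 19.2, 16.6 and 17.2 CPM with anti-PD1 (log2 change 0.57 ± 0.14, edgeR adjusted p = 0.0287). Mcm2, Mcm3 and Mcm6 changed by 0.54, 0.58 and 0.47. Regorafenib 1 and 4 were the highest libraries for each of the 4. Of 17 mitosis genes the spindle kinase Aurka was called, at 0.43 ± 0.13 (edgeR adjusted p = 0.0489), and Mki67, the proliferation antigen, was not, at 0.30 ± 0.14 (edgeR adjusted p = 0.173). The 1 mitosis call is 5.88% of its list, near the 4.16% of all tested genes called higher. No replication gene was called without any 1 anti-PD1 library or without regorafenib 1 or 4, while 6 were without regorafenib 2 and 4 without regorafenib 3.

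Glucose uptake and glycolysis genes moved in both directions. Of 17 hypoxia and glycolysis genes, Slc2a1, Pfkp, Pfkl and Pgam1 were called higher and Hk2 lower, with a median of 0.01 and a summed level of 6684 to 8007 CPM with regorafenib and 7866 to 8577 CPM with anti-PD1. Pgam1, the phosphoglycerate mutase, had 101, 102, 104 and 106 CPM with regorafenib, against 70.6, 68.5 and 74.8 CPM with anti-PD1, a gap many times the spread within either group (log2 change 0.53 ± 0.08, edgeR adjusted p = 0.0051). Slc2a1, the glucose transporter GLUT1 of epithelium, had 152, 133, 130.0 and 185 CPM with regorafenib, against 110.2, 87.3 and 97.2 CPM with anti-PD1 and 69.5 to 87.4 CPM in vehicle libraries (log2 change 0.61 ± 0.14, edgeR adjusted p = 0.0235). Pfkp and Pfkl, the platelet and liver forms of phosphofructokinase, changed by 0.47 ± 0.10 and 0.41 ± 0.10. Hk2, the hexokinase that muscle also uses, had 196, 202, 208 and 176 CPM with regorafenib, against 230.4, 258 and 240.2 CPM with anti-PD1 (log2 change -0.31 ± 0.09). Of 16 oxidative phosphorylation genes, the complex I subunit Ndufs1 and the complex II subunit Sdha were called lower, at -0.37 ± 0.09 and -0.40 ± 0.11. The 4 higher glycolysis calls numbered 1 without anti-PD1 1 or 2, 4 without anti-PD1 3 and 2 to 5 without 1 regorafenib library.

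Signalling and stress lists gave scattered calls. Spry4, a feedback inhibitor of receptor kinase signalling, was the 1 called of 13 MAP kinase feedback genes, at 2.06, 2.7, 1.91 and 2.88 CPM with regorafenib and 4.76, 3.27 and 3.99 CPM with anti-PD1 (log2 change -0.74 ± 0.22, edgeR adjusted p = 0.0482). Dusp6, the phosphatase of ERK, differed by 0.13 ± 0.13 (edgeR adjusted p = 0.545). Among the p53 targets Ccng1, cyclin G1, fell by 0.46 on the log2 scale and Zmat3, an RNA-binding protein, was higher at 0.23 ± 0.07, while the cell-cycle inhibitor Cdkn1a had 0.05 ± 0.10 (edgeR adjusted p = 0.754). Nfkbia, the inhibitor of NF-kB, was higher at 0.51 ± 0.14 and Vcam1, a leukocyte adhesion molecule, lower at -0.76 ± 0.22. The immediate early gene Nr4a1, an orphan nuclear receptor, had 21.2, 26.7, 31.6 and 22.7 CPM with regorafenib and 48.9, 44.6 and 33.8 CPM with anti-PD1 (log2 change -0.73 ± 0.21). None of 10 heat shock chaperones or 11 unfolded protein response genes was called. Each of these lists had at most 1 call in a direction with all libraries, and no call in either direction without anti-PD1 1 or 2.

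Skeletal muscle genes were lower with regorafenib throughout. All 12 membrane and calcium release genes had negative log2 changes and 10 were called (median -0.53), and all 19 sarcomere genes did with 7 called (median -0.47). Ryr1, the calcium release channel, had 662, 669, 621 and 587 CPM with regorafenib, against 861, 1032 and 846 CPM with anti-PD1 and 918 to 1086 CPM in vehicle libraries (log2 change -0.52 ± 0.11, edgeR adjusted p = 0.0201). Cacna1s, the voltage sensor coupled to it, had 190.2, 186, 159 and 166 CPM with regorafenib, against 247, 303 and 258 CPM with anti-PD1 (log2 change -0.62 ± 0.13). In both genes each anti-PD1 library exceeded each regorafenib library. Sgcd, the delta-sarcoglycan of the dystrophin complex, had 3.5, 4.78, 4.67 and 3.32 CPM with regorafenib and 7.68, 7.47 and 5.66 CPM with anti-PD1 (log2 change -0.77 ± 0.16). Myh4, the fast myosin heavy chain, averaged 7733 ± 445 CPM with regorafenib and 11460.0 ± 729.8 CPM with anti-PD1 (log2 change -0.57 ± 0.14). In place of 10 membrane calls there were 0 without anti-PD1 1 or 2, 8 without anti-PD1 3 and 7, 9, 6 and 6 without regorafenib 1 to 4. In place of 7 sarcomere calls there were 0, 0 and 3 without anti-PD1 1, 2 and 3, and 2, 7, 1 and 1 without regorafenib 1 to 4.

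Adipocyte genes had the lowest median of any list, -1.72 over 8 tested, with 4 called lower (Adipoq, Plin1, Plin4 and Cfd). Adipoq, the adipocyte hormone adiponectin, had 0.115, 0.177, 0.394 and 0.310 CPM with regorafenib, against 3.6, 1.27 and 0.449 CPM with anti-PD1 (log2 change -2.80 ± 0.66, edgeR adjusted p = 0.0263). Cfd, the serum protease adipsin, had 0.516, 0.487, 1.01 and 0.532 CPM with regorafenib, against 13.8, 4.04 and 1.08 CPM with anti-PD1 (log2 change -3.31 ± 0.80, edgeR adjusted p = 0.0292). Anti-PD1 1 was the highest library of both, and vehicle 2 was above anti-PD1 3 and each regorafenib library. The 4 calls numbered 0 without anti-PD1 1, anti-PD1 2, regorafenib 1 or regorafenib 4, 1 without regorafenib 2 or 3, and 5 without anti-PD1 3. Sox10, the Schwann cell factor, was lower at -0.73 ± 0.19 (edgeR adjusted p = 0.0296), and of the 7 fits without 1 library it was called in those without anti-PD1 3 and without regorafenib 1. Of 14 clock genes Cry2, Nr1d2 and Tef were called lower. Tef, a clock-driven transcription factor, had 63.9, 72.4, 65.3 and 65.4 CPM with regorafenib, against 98.4, 96.6 and 91.5 CPM with anti-PD1 (log2 change -0.52 ± 0.09, edgeR adjusted p = 0.0135), with vehicle libraries at 88.5 to 109 CPM. The hour of collection is not given in the labels, and the 3 calls numbered 0 without anti-PD1 1 or 2.

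The 7 largest rises among genes of at least 1 CPM were members of the stomach list, which also holds the pancreatic genes Clps and Pla2g1b. These 7 were at or near 0 CPM in the anti-PD1 and vehicle libraries. Of 14 tested members 8 were called higher (Pgc, Atp4a, Atp4b, Gkn1, Tff1, Mucl3, Clps and Pla2g1b), beside 4.16% of all tested genes. The median was 5.14, or 4.77 with Atp4b at the bound given below. In the whole list 11 members had positive and 3 negative log2 changes, the lowest at -1.86. Pgc, the pepsinogen progastricsin, had 41.2, 38.2, 5.46 and 51.9 CPM in regorafenib libraries, against 0, 0 and 0.0449 CPM in anti-PD1 libraries. That is 2848 counts over the regorafenib libraries and 1 over the anti-PD1 libraries, a depth-scaled ratio of 2160 (exact 95% interval 387 to 85350, counting error only), and the lowest regorafenib library was regorafenib 3. Clps had 13.9, 11.6, 1.58 and 12.7 CPM with regorafenib and 0, 0 and 0.0898 CPM with anti-PD1, or 819 against 2 counts and a ratio of 311 (85.7 to 2569). Pla2g1b, the phospholipase of pancreatic juice, had 395 counts with regorafenib against 2 with anti-PD1, a ratio of 150 (41.2 to 1241). The proton pump subunits of the acid-secreting parietal cell moved with them. Atp4a had 199 against 3 counts, a ratio of 50.3 (17 to 246), and Atp4b 104 against 0, at least 26.3-fold higher with a floor of 3 counts over the group. Gkn1, a gastric mucosal peptide, had 12.8, 5.05, 0.394 and 24.6 CPM with regorafenib and 0.0486, 0.443 and 0.0449 CPM with anti-PD1 (log2 change 5.96 ± 1.55), so regorafenib 3 lay below anti-PD1 2. Tff1, a gastric trefoil peptide, had 8.89, 4.16, 1.01 and 11.5 CPM with regorafenib and 0.292, 1.05 and 0.584 CPM with anti-PD1, and there too regorafenib 3 lay below anti-PD1 2. The list's summed CPM was 115 to 581 with regorafenib and 1.35 to 1091 with anti-PD1, with anti-PD1 1 the highest, since some members were also high in gland-rich libraries. Slitrk5, a synaptic membrane protein outside the list, was called as well, at 2.98, 2.17, 1.86 and 4.88 CPM with regorafenib and 0.875, 0.277 and 0.584 CPM with anti-PD1 (log2 change 2.34 ± 0.45, edgeR adjusted p = 0.0163). In place of 8 stomach calls there were 3, 2 and 4 without anti-PD1 1, 2 and 3, 4, 7, 8 and 4 without regorafenib 1 to 4, and 1 (Clps) with the muscle covariate. Whether stomach tissue or its RNA was present in those samples was not tested.

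The remaining lists gave no call in either direction. They were dendritic cells (11 tested, median -0.09), M1-type and inflammatory cytokines (9, -0.30), B and plasma cells (4, -0.32), mast cells and eosinophils (9, -0.37), the EGF receptor family (9, 0.23), salivary gland (13, -1.18) and erythrocytes (5, -0.06). Lymphatic endothelium had 1 of 6 called lower, which was Lyve1. Alox12e, an epidermal lipoxygenase, was among the 12 largest falls at 0.860, 3.23, 1.35 and 0.931 CPM with regorafenib and 11.3, 7.58 and 6.06 CPM with anti-PD1 (log2 change -2.36 ± 0.49, edgeR adjusted p = 0.0201), while its vehicle libraries held 0.623 to 2.86 CPM. It lost its call without anti-PD1 1 and without anti-PD1 2. Cyp2e1, a cytochrome P450 of liver and fat, was another, at 0.459, 0.753, 1.18 and 0.798 CPM with regorafenib and 5.88, 2.49 and 0.943 CPM with anti-PD1 (log2 change -1.95 ± 0.58), with overlap at anti-PD1 3. Its call was lost in 6 of the 7 fits without 1 library, and its estimate turned to 0.26 when muscle and adipocyte scores entered the fit.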

How the data were processed

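RNA was measured in 19 oral tumour samples, grouped by the treatment in the sample titles, and 7 of them form the comparison. Per the labels' protocols, a strand-specific mRNA kit was used for the libraries, and the submitters' processing notes name the mouse build GRCm38, the aligner STAR 2.7.2a and the trimmer cutadapt 2.4. Values are the authors' deposited read counts, whole numbers with no scaling, for 55487 Ensembl gene IDs and 19 columns that were matched to samples by name. Neither the counting program nor its strand setting is stated in the sources used here, which leaves overlapping, antisense and near-identical genes uncertain. Of 126 GTPase and named genes, 28 overlap another tested gene. Gene symbols and positions are those of GENCODE M21, where 55227 IDs matched without their version and 260 did not. Coordinates are 1-based and span exons, introns and untranslated regions. Promoter windows came from RefSeq.

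Low genes were removed with filterByExpr by group, which left 16909 genes with 99.92% of counts. After TMM scaling, a robust quasi-likelihood model (edgeR 4.0.16, R 4.3.3) was fitted to the 19 libraries with a mean for each group, leaving 14 residual degrees of freedom at a common dispersion of 0.0345. The contrast was regorafenib minus anti-PD1, two-sided, with Benjamini-Hochberg adjustment over all tested genes and a threshold of 0.05. Levels are CPM of TMM-scaled counts. Log2 changes are given ± SE, taken as the size of the change over the square root of F. On simulated counts of the 19 libraries (16734 genes, 100 of them changed at each size), the fit recovered 51% of 1.5-fold and 97% of 3-fold changes with 11 false calls. Intervals and floors cover counting error only. No 2 of the 11 drug and vehicle libraries agreed within sampling noise (55 pairs, smallest chi-square per degree of freedom 12.8).

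The genes named were the 12 largest rises and 12 largest falls with a mean of at least 1 CPM in either drug group and an established symbol, up to 4 called members per direction of each of 44 lists (the 1 with the smallest p where none was called), and 15 fixed genes. That gave 116 genes, 95 of them called. Further members were named where a count of 5 or fewer or a list needed them, after their values were seen, and genes that kept their call in each fit without 1 library were named by that count. The members and lists were chosen with earlier results of these data known, so list counts are descriptions and carry no test. The alternatives tried were DESeq2 1.42.0, limma 3.58.1, RLE scaling, no filter on low genes, the 7 libraries alone, replicate blocks, muscle, gland and adipocyte covariates, length and GC offsets, a minimum fold, and fits without 1 library each. A few genes of these lists and counts are not reported here.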

Additional observations from a re-analysis of the deposited data

Results flagged for a closer look

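Of 320 values checked in the groups of 4 libraries, 18 had 1 library far from the other 3, where chance alone gives about 1 in 20. In regorafenib libraries these were Gbp5, at 3.99 CPM in regorafenib 4 against 2.87 to 3.01 CPM in the other 3, and Cd80, at 3.81 CPM in regorafenib 4 against 2.48 to 2.69 CPM. Dusp6 had 39.3 CPM in regorafenib 4 against 28.0 to 29.1 CPM. Regorafenib 3 stood apart for Krt6b, at 8866 CPM against 7441 to 7677 CPM, for Vegfb, a VEGF family ligand, at 58.3 CPM against 76.2 to 78.8 CPM, and for Cfd, at 1.01 CPM against 0.487 to 0.532 CPM. It also stood apart in the summed level of oxidative phosphorylation genes, at 6910 CPM against 8146 to 8337 CPM, and of adipocyte genes, at 614 CPM against 843 to 880.5 CPM. Regorafenib 2 did so for Chil3, at 0.443 CPM against 0.169 to 0.177 CPM, and for Bpifa1, an airway and gland secretory protein, at 8.90 CPM against 0.975 to 1.29 CPM. The interferon-gamma signalling and CXCR3 list summed to 256 CPM in regorafenib 1 against 279 to 280.5 CPM in the other 3.

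Among vehicle libraries, vehicle 2 stood apart in 4 values: the salivary gland sum (19455 CPM against 39.9 to 1462 CPM), the stomach list sum (430.3 CPM against 1.07 to 18.2 CPM), Adipoq (1.51 CPM against 0.397 to 0.479 CPM) and Cyp2e1 (3.78 CPM against 1.30 to 1.65 CPM). Vehicle 3 did so for Bpifa1 (1.12 CPM against 0.357 to 0.403 CPM) and for Gkn1 (0.0533 CPM against 0), and vehicle 4 for Mucl3, a mucin-like gene (0.104 CPM against 0). The last 2 rest on 1 or 2 counts.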

How the results depend on the processing

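In the fits without 1 library, the count of genes called (1410, of which 703 were higher and 707 lower with regorafenib) ranged from 20 to 1231, the count called higher from 6 to 713 and the count called lower from 14 to 518. Of the 95 named genes called, 7 were also called without anti-PD1 1 and 5 without anti-PD1 2, while without the other libraries the number ran from 33 to 62. Without a filter 792 genes were called (266 higher). DESeq2 called 2292 (1090 higher and 1202 lower) and limma 3001 (1592 higher and 1409 lower). With the 7 libraries alone 1882 were called, 1120 of them lower, so the share called higher was 40.5% beside 49.9%. RLE scaling gave 1438, a salivary gland covariate 1621 and offsets for exon length and GC content 1708 calls. With the muscle covariate 3 genes were called (2 higher and 1 lower), and the 1410 genes had a median change of 0.29 in their original direction, beside 0.435. With muscle and adipocyte covariates, an alternative chosen after seeing the data, 6 were called (5 higher and 1 lower), and Cyp2e1 turned to 0.26 (edgeR adjusted p = 0.827). Against a fold threshold of 1.2, 4 genes were called (3 higher and 1 lower). The causes of these differences were not tested.

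The titles do not say whether replicate numbers pair the samples. The deviations of same-numbered regorafenib and anti-PD1 libraries correlated at -0.375, 0.34 and -0.45, and so few correlations cannot decide this. With the title number as a replicate block 636 genes were called (284 higher and 352 lower), and with the number in the column names as a block 191 (117 higher and 74 lower). Between 1406 and 1410 of the 1410 genes had the same sign under every alternative. Of 2200 recomputed values of named genes over 19 alternatives, 1276 stayed on the same side of the threshold, 900 lost their call, 23 gained one and 1 reversed. The median exon length was 3702 bases for genes called higher and 5173 for genes called lower, beside 3942 for all tested genes. The simulation, which recovered 51% of 1.5-fold changes, sets no limit of detection for these data. It changed far fewer genes than were called here, where the median called change was 0.435 on the log2 scale.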
